A study of Arabidopsis thaliana with 48 samples.

Results

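The comparison of light with dark in wild-type seedlings 4 d after germination was read from 6 libraries, 3 from light and 3 from dark, all without glucose. They are 6 of the 48 samples of a series on Arabidopsis thaliana, the thale cress, in which wild type and a snrk1a1/a2 mutant were sampled in light and in dark at different ages. All 6 samples share the wild-type genotype, the age of 4 d, the absence of a treatment and the whole seedling as tissue. They were chosen by their labels alone, with no measured value. Side comparisons used wild type at 3 d in dark, wild type at 5 d in light and in dark, and the mutant at 4 d in light and in dark, each with 3 libraries and no glucose. The labels do not give the light quality, the hour of harvest, the time at which illumination began or whether the 3 samples of a group were grown apart. The p-values of genes measure the spread between samples within groups, estimated over all 42 libraries of the series and not only these 6. That spread may therefore be technical.

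A seedling that grows in darkness lengthens its hypocotyl, keeps its cotyledons closed behind an apical hook and holds plastids without chlorophyll, called etioplasts. Light perceived by phytochromes, cryptochromes, phototropins and the UV-B receptor releases the transcription factor HY5 from degradation and removes the PIF factors, which maintain dark growth. Hypocotyl growth then slows, cotyledons open, and etioplasts turn into green chloroplasts that fix CO2.

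RNA levels are given as CPM, the counts of a gene's longest transcript model divided by the library total and put on a common scale. Fold changes are log2 of light over dark with the standard error, n = 3 libraries per group, and a gene was called when edgeR's quasi-likelihood test gave an adjusted p under 0.05. The light libraries held 10028344 to 12339680 counts and the dark libraries 10839630 to 14986575. Genes encoded in the plastid took 3.74, 2.97 and 2.07% of the counts in light and 4.18, 3.78 and 3.90% in dark, and the difference of the means was -1.02 percentage points (exact permutation test, two-sided, p = 0.1, the smallest that 3 against 3 allows), or -0.60 without light library 3. Light library 2 stood apart in seed storage transcripts: the listed storage and oil body genes summed to 62.7 CPM there, against 6.57 and 7.13 CPM in the other light libraries and 6.49 to 8.58 CPM in dark. None of the 11 tested members of that list was called by edgeR, with 2 at an unadjusted p under 0.05. DESeq2 called 2 higher, and edgeR called 1 without light library 1 and 2 without light library 3. When the fit held only wild-type libraries without glucose edgeR called 4 higher, and with only the 6 libraries 1. In the dark glucose groups, which enter only the shared estimate of spread, the library labelled wild type 2 lay among mutant libraries on the first principal component and the library labelled mutant 2 among wild-type ones. Without that pair 6571 genes were called between light and dark, against 6297 with it.

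Of 22586 genes tested, 6297 were called, which is 27.9%. The called genes split into 3259 higher in light, 14.4% of the genes tested, and 3038 lower, 13.5%. Among them 1380 were at least 2-fold higher and 1257 at least 2-fold lower. The median log2 fold change over all tested genes was -0.03, and the light and dark CPM did not overlap for 50.3% of the genes. These shares are the background against which each gene group below can be read.

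The steepest rises were sought among called genes with mean log2 CPM of at least 2 over the 6 libraries and no overlap. They were in genes of mitochondrial respiration, cell wall synthesis and starch breakdown. NDA1 (AT1G07180, TAIR10 chromosome 1, 2204320 to 2206934), an NAD(P)H dehydrogenase of the inner mitochondrial membrane, stood at 49.2, 47 and 64.8 CPM in light and 0.467, 0.505 and 0.646 CPM in dark. Its log2 fold change was 6.74 ± 0.44, adjusted p = 1e-12. CSLB03 (AT2G32530, TAIR10 chromosome 2, 13809216 to 13813570), which encodes a cellulose synthase-like protein, rose from 0.734, 0.794 and 0.461 to 34.6, 28.6 and 38.8 CPM. BAM3 (AT4G17090, TAIR10 chromosome 4, 9604962 to 9607334), a plastid beta-amylase that releases maltose from starch, was at 107, 102 and 129 CPM in light against 1.94, 2.53 and 2.31 CPM in dark, a log2 change of 5.74 ± 0.75, adjusted p = 1.3e-06. The lack of overlap between light and dark in these 3 genes was fixed by that choice. NDA1 and CSLB03 stood below 1 CPM in each dark library.

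Further large rises were shared by transporters and enzymes. The neighbouring genes AT2G04050 and DTX1 (AT2G04040), which both encode MATE efflux proteins, changed by 4.84 ± 0.47 and 3.98 ± 0.50, and reads of such similar neighbours may have been divided between them. AT3G21670, a transporter of the major facilitator superfamily, changed by 4.17 ± 0.46. FBA5 (AT4G26530), a fructose-bisphosphate aldolase, was the most scattered of them, at 64.8, 19.5 and 40.4 CPM in light and 2.07, 1.95 and 2.68 CPM in dark. The thionin gene THI2.2 (AT5G36910), whose product is of a family of small antimicrobial proteins, rose by 4.44 on the log2 scale.

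The steepest falls included genes that were abundant in the dark. AT5G44440 (TAIR10 chromosome 5, 17910557 to 17912312), a berberine-bridge-like oxidoreductase, fell from 1751, 1645 and 1383 CPM in dark to 33.5, 36.6 and 23.7 CPM in light. XTH15 (AT4G14130, TAIR10 chromosome 4, 8137051 to 8138281), a xyloglucan endotransglucosylase that remodels growing walls, stood at 2422, 2339 and 2683 CPM in dark and 119.5, 117 and 60.1 CPM in light, a log2 change of -4.54 ± 0.72, adjusted p = 1.74e-05. ST2A (AT5G07010), which sulfates hydroxyjasmonate, was at 286, 228 and 246 CPM in dark and 13.7, 15.6 and 7.05 CPM in light. The light and dark values of all 3 genes lay more than 10-fold apart, and the genes were picked for large falls without overlap.

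Other genes fell as steeply from lower levels in the dark. FLP1 (AT4G31380), related to a flowering-promoting factor, changed by -5.24 ± 0.52, the ARM-repeat gene AT3G18530 by -5.44 ± 0.44 and AT5G02580, a gene of unknown function, by -5.23 ± 0.44. OLEO3 (AT5G51210), an oleosin that coats oil bodies, was at 18.8, 27.7 and 19.1 CPM in dark and 0.977, 0.897 and 0.405 CPM in light. GRF7 (AT5G53660), a growth-regulating factor, changed by -4.75 ± 0.71.

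**Figure D1:**
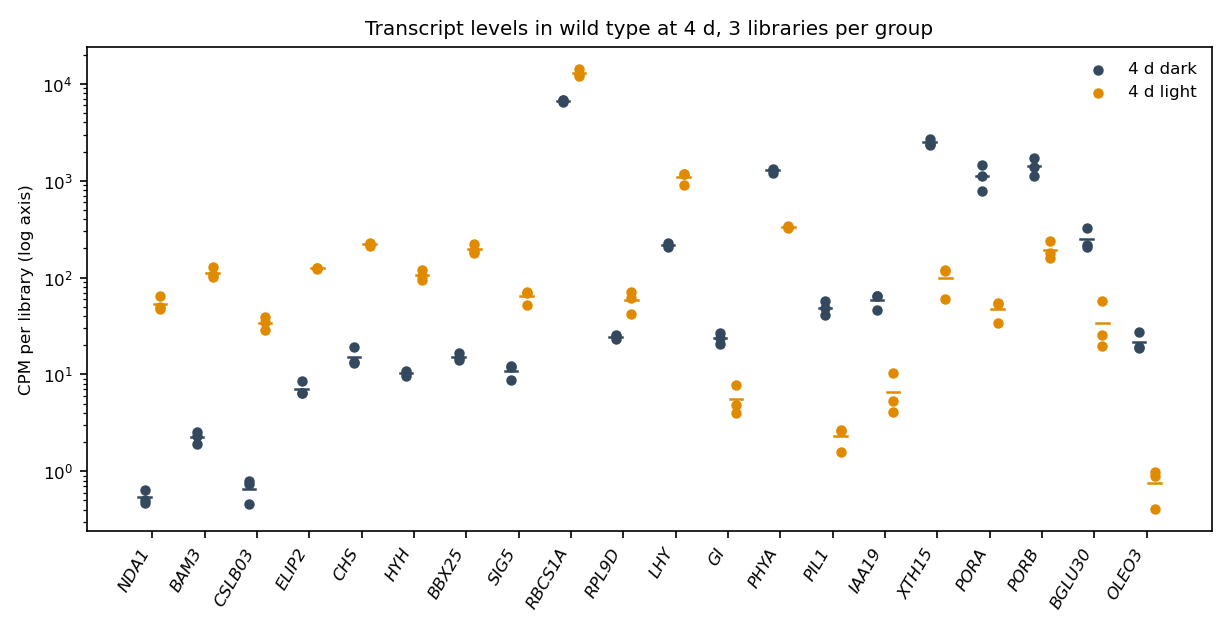
CPM on a log axis for 20 genes in each of the 3 light and the 3 dark libraries of wild type at 4 d, with 1 point per library. NDA1, CSLB03 and BAM3 lie more than 10-fold apart between light and dark, while the groups of RPL9D and RBCS1A lie much closer without overlapping.

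All calls among photosynthesis genes were rises, of unequal size. Of 52 listed genes of the photosystems and their light-harvesting antennae, 16 rose, none fell and 36 did not pass, with a median log2 fold change of 0.62. LHCA5 (AT1G45474, TAIR10 chromosome 1, 17179302 to 17180806), an antenna protein of photosystem I, stood at 118, 121 and 131 CPM in light and 41.8, 45 and 46.5 CPM in dark, a change of 1.57 ± 0.26, adjusted p = 3.63e-05. LHCB7 (AT1G76570), an antenna protein of photosystem II, changed by 1.29 ± 0.27, and PETC (AT4G03280), the Rieske protein of the cytochrome b6f complex, by 1.22 ± 0.26. When the fit held only wild-type libraries without glucose 26 of the 52 rose, and with only the 6 libraries of the comparison 39 did.

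The most abundant antenna genes were already high in the dark. LHCB1.3 (AT1G29930), which encodes a main antenna protein of photosystem II, was at 24688, 20759.9 and 25448 CPM in dark and 21387, 19658 and 20243 CPM in light (adjusted p = 0.89). LHCB1.4 (AT2G34430) was at 3843, 3344 and 4379 CPM in dark and 5443, 5199 and 5747 CPM in light, and its groups did not overlap, yet the test did not pass (adjusted p = 0.548, and 0.00185 with only the 6 libraries in the fit). The LHCB1 genes are nearly identical, so reads may be divided unevenly among them. PSBS (AT1G44575), a sensor of excess light, also did not pass (0.83 ± 0.35, adjusted p = 0.0784, and 5.58e-05 with only the 6 libraries).

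Of 21 listed Calvin cycle genes, 17 rose and none fell, with a median change of 1.09. Rubisco activase, RCA (AT2G39730, TAIR10 chromosome 2, 16570746 to 16573519), which keeps the CO2-fixing enzyme open, was at 6646, 5768 and 6893 CPM in light and 2272, 2097 and 2017 CPM in dark (1.7 ± 0.33, adjusted p = 0.000198). The small rubisco subunit gene RBCS1A (AT1G67090, TAIR10 chromosome 1, 25048158 to 25049424) rose from 6808, 6469 and 6755 to 14236, 11938 and 12698 CPM (1.06 ± 0.30, adjusted p = 0.0071). Its relatives differed among themselves: RBCS1B (AT5G38430) changed by 2.99 ± 0.52, while RBCS2B (AT5G38420) was at 1431, 1243 and 1377 CPM in light and 1730.3, 1733 and 1792 CPM in dark and was not called (adjusted p = 0.656). The small subunit sequences are close enough for counts to be uncertain between them. The plastid aldolase FBA1 (AT2G21330) rose by 2.34 on the log2 scale, the epimerase RPE (AT5G61410) by 1.09 and the isomerase RPI3 (AT3G04790) by 1.38.

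Photorespiration salvages the product that rubisco makes when it takes up oxygen. Of its 16 listed genes 15 rose and none fell, with a median of 1.49. The peroxisomal glutamate-glyoxylate aminotransferase GGT1 (AT1G23310) was at 3039, 2051 and 2782 CPM in light and 841, 754 and 899 CPM in dark. Its homologue GGT2 (AT1G70580) was lower in level and larger in change (2.29 ± 0.16, adjusted p = 7.58e-12). Both glycine decarboxylase P subunits rose, GLDP1 (AT4G33010) by 2.08 and GLDP2 (AT2G26080) by 2.17, and the hydroxypyruvate reductase HPR1 (AT1G68010) by 1.4.

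The 200 bases before the annotated starts of RBCS1A (minus strand, chr1:25049425-25049624) and RCA (minus strand, chr2:16573520-16573719) are printed because both are abundant genes that rose and hold a G-box, CACGTG, which bZIP and bHLH factors of light signalling are known to bind. They are read 5′ to 3′ from the TAIR10 chromosomes of RefSeq's TAIR10.1 assembly, with the G-box in capitals.
RBCS1A: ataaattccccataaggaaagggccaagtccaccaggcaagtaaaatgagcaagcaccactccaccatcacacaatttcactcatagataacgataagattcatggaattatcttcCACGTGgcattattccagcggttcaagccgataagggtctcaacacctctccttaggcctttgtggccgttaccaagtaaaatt
RCA: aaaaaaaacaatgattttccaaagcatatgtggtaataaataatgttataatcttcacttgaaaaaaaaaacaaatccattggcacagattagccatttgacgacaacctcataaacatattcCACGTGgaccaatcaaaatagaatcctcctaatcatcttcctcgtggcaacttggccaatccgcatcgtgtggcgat
The G-box starts 84 bases before the start of RBCS1A and 77 bases before that of RCA. Among listed Calvin cycle genes with a window of 250 bases before to 50 after the start, 7 of 21 held a G-box and 12 of 21 an I-box, GATAAG, on either strand. Over all 22432 tested genes with such a window, 9.01% held a G-box and 15.6% an I-box.

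Chlorophyll synthesis held genes of either direction. Of 27 listed genes 15 rose and 2 fell, with a median of 0.77. HEMA1 (AT1G58290), which makes the first committed precursor of tetrapyrroles, rose from 367, 357 and 355 to 987, 769 and 1017 CPM (1.46 ± 0.25, adjusted p = 3.37e-05). GUN4 (AT3G59400), an activator of magnesium chelatase, rose by 1.4 on the log2 scale, and CAO (AT1G44446), which makes chlorophyll b, by 1.55.

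Both genes that fell encode the light-dependent protochlorophyllide reductases of etioplasts. PORA (AT5G54190, TAIR10 chromosome 5, 21990912 to 21992812) stood at 1123, 1452 and 779 CPM in dark and 54.8, 53.7 and 33.9 CPM in light, a log2 change of -4.44 ± 0.64, adjusted p = 4.21e-06. PORB (AT4G27440, TAIR10 chromosome 4, 13725546 to 13727353) fell from 1392, 1728 and 1106 to 179.7, 236 and 160.4 CPM (-2.77 ± 0.49, adjusted p = 7.8e-05). The third reductase, PORC (AT1G03630), was at 63.7, 71.1 and 73.1 CPM in light and 49.8, 63.1 and 38.4 CPM in dark and was not called (adjusted p = 0.273, and 0.00352 with only the 6 libraries in the fit). Light and dark overlapped for none of the 3 genes.

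The sequences before the starts of PORA (minus strand, chr5:21992813-21993012) and PORB (plus strand, chr4:13725346-13725545) are shown because both hold the evening element AAAATATCT, a motif bound by clock MYB factors, here in capitals.
PORA: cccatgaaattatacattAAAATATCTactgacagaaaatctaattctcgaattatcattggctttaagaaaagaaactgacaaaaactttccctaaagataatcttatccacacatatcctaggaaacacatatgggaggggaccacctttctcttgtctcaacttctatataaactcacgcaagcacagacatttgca
PORB: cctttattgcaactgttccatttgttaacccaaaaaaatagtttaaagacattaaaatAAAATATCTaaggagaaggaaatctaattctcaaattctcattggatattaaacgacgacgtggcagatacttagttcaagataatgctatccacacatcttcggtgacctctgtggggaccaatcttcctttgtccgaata
The motif lies 182 bases before the start of PORA and 142 before that of PORB. Over all tested genes with a window, 2.64% held the evening element, against 5.04% of those called lower and 2.12% of those called higher.

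Of 16 carotenoid genes, which make photoprotective pigments and the precursors of abscisic acid, 11 rose and none fell, with a median of 0.56. PSY (AT5G17230), phytoene synthase, the entry step of the pathway, went from 137, 125 and 95.2 CPM in dark to 385, 379 and 509 CPM in light (1.93 ± 0.24, adjusted p = 1.93e-07). The zeaxanthin epoxidase ZEP (AT5G67030) rose by 1.5, the hydroxylase BCH1 (AT4G25700) by 1.17 and the violaxanthin de-epoxidase VDE1 (AT1G08550) by 0.93 on the log2 scale.

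Nuclear genes for transcription, translation and import in plastids rose in 18 of 29 cases and fell in none, with a median of 0.56. Without dark library 1 or without dark library 3 the number was 10. SIG5 (AT5G24120), a sigma factor of the plastid RNA polymerase, was at 68.8, 52.5 and 70.3 CPM in light and 11.9, 12.1 and 8.86 CPM in dark (2.64 ± 0.49, adjusted p = 0.000163). SIG1 (AT1G64860) changed by 1.24 ± 0.21, SIG3 (AT3G53920) by 1.1 ± 0.17 and the plastid elongation factor gene RABE1B (AT4G20360) by 1.2 ± 0.25. Of 13 plastid ribosomal protein genes only 3 passed, all higher, among them PRPL27 (AT5G40950) at 1.01 ± 0.22, and 5 passed without dark library 2 and 10 with only the 6 libraries in the fit. Of the 105 plastid-encoded genes tested, 1 was called, and it was lower in light. Their median was -0.48, with 12 of the 105 above 0.

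Genes of light perception and of its repressors went both ways. Of 22 listed, 8 rose and 8 fell, with a median of 0.05, and 5 fell when dark library 2, light library 2 or light library 3 was left out. PHYA (AT1G09570, TAIR10 chromosome 1, 3095256 to 3100357), the phytochrome that accumulates in darkness, was at 1321, 1302 and 1207 CPM in dark and 339, 330.2 and 329 CPM in light (-1.84 ± 0.21, adjusted p = 9.1e-08). PHOT1 (AT3G45780), a blue-light receptor of phototropism, changed by -1.87 ± 0.33, and PHYB (AT2G18790), the main phytochrome of light-grown plants, changed by -0.49 ± 0.13. The PIF genes did not move together: PIF3 (AT1G09530) changed by -0.75 ± 0.19 and PIF4 (AT2G43010) by -1.87 ± 0.33, whereas PIF8 (AT4G00050) rose from 7.67, 7.43 and 7.84 to 81.5, 64.4 and 79.3 CPM (3.39 ± 0.30, adjusted p = 5.17e-10). PIF1 (AT2G20180) was at 44.7, 42.2 and 41.8 CPM in light and 47.2, 45.7 and 41.4 CPM in dark and was not called. COP1 (AT2G32950), the ubiquitin ligase that targets HY5, changed by 0.83 ± 0.14, and its partners SPA3 (AT3G15354) and SPA4 (AT1G53090) by 2.06 ± 0.27 and 1.84 ± 0.24.

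Among 20 regulators that act after the receptors, 8 rose and 7 fell, with a median of -0.02. The number that rose was 5 without dark library 1 or without light library 1. HY5 (AT5G11260, TAIR10 chromosome 5, 3593380 to 3594992), a bZIP factor at the centre of greening, was at 36.8, 27.7 and 33.4 CPM in light and 11.6, 14.4 and 15.1 CPM in dark. Its log2 change was 1.36 ± 0.42, adjusted p = 0.016, and the adjusted p was 0.0721 without dark library 1 and 0.055 without light library 1. Its homologue HYH (AT3G17609) rose further, from 9.54, 10.4 and 10.8 to 105, 94 and 119 CPM (3.47 ± 0.35, adjusted p = 9.59e-09). RUP2 (AT5G23730), a repressor of UV-B signalling, was at 61, 46.2 and 57.6 CPM against 3.67, 6.13 and 3.78 CPM, and the GATA factor gene CGA1 (AT4G26150), which promotes chloroplast development, at 50.3, 29.8 and 53.1 CPM against 3.8, 4.11 and 3.14 CPM. BIC1 (AT3G52740), an inhibitor of cryptochromes, changed by 2.76 ± 0.62.

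The falls among regulators included shade and dark growth genes. PIL1 (AT2G46970, TAIR10 chromosome 2, 19295490 to 19297826), a bHLH gene that shade induces, fell from 57.6, 48.3 and 40.9 to 1.6, 2.59 and 2.67 CPM (-4.32 ± 0.64, adjusted p = 6.84e-06). ATHB2 (AT4G16780), a homeodomain factor of the shade response, was at 68.2, 62.1 and 60.8 CPM in dark and 4.26, 9.57 and 10.3 CPM in light. FHY1 (AT2G37678) and FHL (AT5G02200), which carry phytochrome A into the nucleus, changed by -1.88 ± 0.26 and -2.99 ± 0.35. In each of these 4 genes every dark library was above every light library.

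B-box zinc finger genes, many of which work with or against HY5, numbered 9 higher and 4 lower among 23, with a median of 0.68. Without dark library 1 the number higher was 5. BBX25 (AT2G31380) was at 188, 181 and 224 CPM in light and 16.7, 14.6 and 14.1 CPM in dark (3.8 ± 0.43, adjusted p = 7.49e-08), and BBX3 (AT3G02380) rose by 3.24 and BBX2 (AT5G15850) by 1.46 on the log2 scale. BBX23 (AT4G10240) was at 10.5, 12.5 and 9.78 CPM in dark and 0.178, 0 and 0.162 CPM in light, the latter from at most 2 counts in a library. BBX6 (AT5G57660), BBX21 (AT1G75540) and BBX28 (AT4G27310) changed by -1.18 ± 0.15, -0.81 ± 0.23 and -1.13 ± 0.24.

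Of 10 light stress genes 6 rose and none fell, with a median of 1.06. The early light-induced proteins bind pigments while the photosystems are assembled. ELIP2 (AT4G14690, TAIR10 chromosome 4, 8418283 to 8419263) was at 126, 125 and 123.3 CPM in light and 6.41, 8.59 and 6.37 CPM in dark, a change of 4.23 ± 0.59, adjusted p = 2.92e-06. ELIP1 (AT3G22840, TAIR10 chromosome 3, 8084447 to 8085560) was more scattered in light, at 103, 38.9 and 54.7 CPM, against 13.4, 15.6 and 14 CPM in dark (2.3 ± 0.59, adjusted p = 0.00391). OHP1 (AT5G02120) and OHP2 (AT1G34000), single-helix proteins of photosystem assembly, changed by 1.79 ± 0.24 and 1.38 ± 0.18. The stretch before ELIP1 (minus strand, chr3:8085561-8085760) holds a G-box 175 bases from the start, in capitals, and is printed as that of a gene higher in light than in dark at 4 d that is no photosystem component.
ELIP1: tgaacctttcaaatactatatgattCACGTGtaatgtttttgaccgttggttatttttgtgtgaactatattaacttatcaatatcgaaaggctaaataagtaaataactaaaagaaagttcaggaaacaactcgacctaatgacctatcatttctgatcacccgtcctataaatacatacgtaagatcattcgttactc

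The circadian clock is a loop in which CCA1 and LHY repress evening genes. Of 23 listed clock genes 8 rose and 6 fell, with a median of -0.21, and 10 fell with only the 6 libraries in the fit. CCA1 (AT2G46830, TAIR10 chromosome 2, 19245672 to 19248909) was at 455, 396 and 509 CPM in light and 101, 105 and 109 CPM in dark (2.21 ± 0.29, adjusted p = 6.72e-07), and LHY (AT1G01060) at 1162, 904 and 1181 CPM and 225, 217 and 206 CPM. The related MYB genes RVE8 (AT3G09600) and RVE2 (AT5G37260) changed by 2.02 ± 0.27 and 2.37 ± 0.28. These morning genes were all higher in every light library than in any dark library.

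Several evening and daytime genes were lower. PRR7 (AT5G02810), a repressor of CCA1, fell from 72.6, 66.7 and 67.3 to 13, 9.27 and 14 CPM (-2.41 ± 0.23, adjusted p = 3.18e-09), and PRR3 (AT5G60100) changed by -2.32 ± 0.56. LUX (AT3G46640) and BOA (AT5G59570), MYB genes of evening complexes, changed by -1.14 ± 0.32 and -1.2 ± 0.23. GI (AT1G22770), an evening gene, was at 20.7, 27.1 and 23.7 CPM in dark and 7.81, 4.79 and 3.97 CPM in light (-2.0 ± 0.60, adjusted p = 0.0124), with adjusted p = 0.0502 without light library 2 and 0.0681 without light library 3. ELF3 (AT2G25930), another member of the evening complex, was not called (adjusted p = 0.386). Among the 23 clock genes 5 held the evening element and 9 a G-box in the same window. The hour of harvest was not given, so a difference in clock phase and a response to light cannot be told apart here.

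Flavonoids and anthocyanins are pigments that shield cells from strong light. Of 26 listed genes 18 rose and 1 fell, with a median of 1.98. The number that rose was 11 without light library 1, and also 11 when the fit held only wild-type libraries without glucose. The 1 fall was lost without dark library 1, dark library 3, light library 2 or light library 3. CHS (AT5G13930, TAIR10 chromosome 5, 4488688 to 4490264), chalcone synthase, the first enzyme of the branch, was at 223, 213 and 228 CPM in light and 13, 19.3 and 13.4 CPM in dark, a log2 change of 3.96 ± 0.50, adjusted p = 5.35e-07. CHIL (AT5G05270), which assists chalcone synthase, changed by 3.08 ± 0.43, F3H (AT3G51240), the flavanone hydroxylase, by 3.06 ± 0.54 and UGT78D2 (AT5G17050), a glucosyltransferase, by 2.7 ± 0.36. PAL1 (AT2G37040), at the entry to phenylpropanoids, was at 66.5, 61.8 and 66.6 CPM in light and 95.2, 91 and 67 CPM in dark and was not called (adjusted p = 0.3).

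Auxin drives cell elongation in the hypocotyl, and of 30 listed auxin response genes 1 rose and 19 fell, with a median of -1.11. IAA19 (AT3G15540, TAIR10 chromosome 3, 5264024 to 5265678), an auxin-induced repressor, was at 65.1, 65.2 and 46.7 CPM in dark and 5.33, 10.3 and 4.05 CPM in light (-3.08 ± 0.27, adjusted p = 5.17e-10). The small auxin-up RNA SAUR22 (AT5G18050) stood at 16.1, 14.7 and 12.6 CPM in dark and 0.355, 2.29 and 0.972 CPM in light. GH3.5 (AT4G27260), which conjugates auxin to amino acids, changed by -2.09 ± 0.17 and IAA7 (AT3G23050) by -1.06 ± 0.16. HLS1 (AT4G37580), needed for the apical hook and counted with the gibberellin, brassinosteroid and ethylene genes below, changed by -1.79 ± 0.34. The 1 auxin gene that rose was SAUR14 (AT4G38840), at 40.5, 36.7 and 46.4 CPM in light and 8.61, 9.45 and 9.32 CPM in dark (2.27 ± 0.29, adjusted p = 5.99e-07).

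The stretch before IAA19 (plus strand, chr3:5263824-5264023) is shown because it holds a G-box, in capitals, 93 bases from the start of a gene that fell.
IAA19: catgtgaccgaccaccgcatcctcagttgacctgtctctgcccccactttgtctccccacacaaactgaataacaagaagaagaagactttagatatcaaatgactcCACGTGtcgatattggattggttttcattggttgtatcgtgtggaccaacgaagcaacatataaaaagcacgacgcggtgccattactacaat
A G-box thus lay before genes of either direction, and 10.2% of the genes called higher and 10.5% of those called lower held one.

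Of 30 cell wall expansion genes 6 rose and 12 fell, with a median of -0.52. Beside XTH15, the wall-loosening genes XTH17 (AT1G65310) and XTH18 (AT4G30280) changed by -3.82 ± 0.53 and -2.82 ± 0.36, and the expansin EXPA11 (AT1G20190) by -1.51 ± 0.23. Members of the same families rose: XTH7 (AT4G37800) was at 166, 188 and 180.4 CPM in light and 56.6, 37.8 and 39.8 CPM in dark, and the expansin EXPA1 (AT1G69530) at 137, 148 and 171 CPM and 47.4, 37.3 and 42.2 CPM. The direction was therefore divided within both families.

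Of 24 genes of gibberellin, brassinosteroid and ethylene 1 rose and 11 fell, with a median of -0.58, and 2 rose without light library 1 or light library 3. GAI (AT1G14920) and RGL1 (AT1G66350), DELLA repressors of gibberellin growth, changed by -1.39 ± 0.28 and -1.59 ± 0.24, and DWF4 (AT3G50660), a hydroxylase of brassinosteroid synthesis, by -1.21 ± 0.21. GA3OX1 (AT1G15550), which makes active gibberellin, was at 11.5, 17.4 and 14.6 CPM in light and 9.81, 12.7 and 8.3 CPM in dark and was not called (adjusted p = 0.105, and 0.0104 with only the 6 libraries in the fit).

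Of 16 abscisic acid genes 2 rose and 7 fell, with a median of -1.02, and 1 rose when any library but light library 2 was left out. NCED3 (AT3G14440), which makes the hormone's precursor, was at 8.61, 9.67 and 12.3 CPM in dark and 1.78, 0.499 and 1.22 CPM in light (-3.0 ± 0.32, adjusted p = 1.85e-08). ABI2 (AT5G57050), a phosphatase that the hormone induces, changed by -2.01 ± 0.22. The hydroxylases that destroy the hormone split, with CYP707A1 (AT4G19230) at -1.82 ± 0.28 and CYP707A2 (AT2G29090) at 2.63 ± 0.47.

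**Figure D2:**
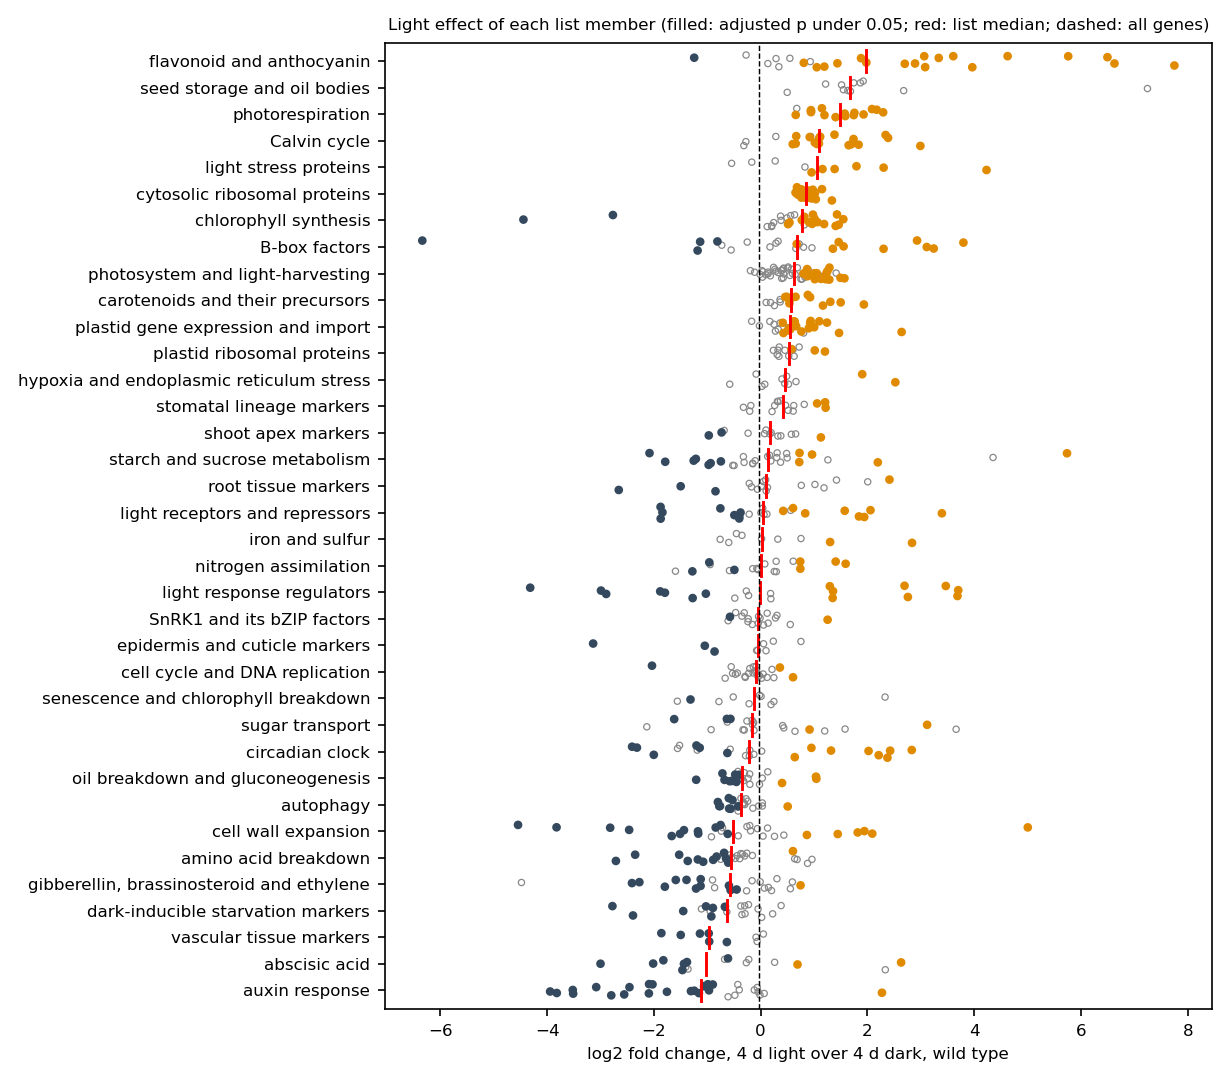
Log2 fold change of light over dark at 4 d in wild type for each tested member of the 36 gene lists, with called members filled. Red lines mark the list medians and the dashed line the median over all tested genes. All 22 listed cytosolic ribosomal protein genes were higher, while 19 of 30 listed auxin response genes were lower. The lists were chosen with earlier results of these data known.

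Genes that seedlings use when carbon runs short were lower in light or did not pass. Of 19 dark-inducible starvation markers 7 fell and none rose, with a median of -0.63. The number was 3 without dark library 3 and 4 without light library 3. DRM1 (AT1G28330), a dormancy-associated gene, was at 940.4, 1001 and 1247 CPM in dark and 229, 177 and 161 CPM in light (-2.39 ± 0.50, adjusted p = 0.000476). BGLU30 (AT3G60140), a beta-glucosidase of dark-treated leaves, stood at 217, 209 and 326 CPM in dark and 57.2, 19.7 and 25.4 CPM in light (-2.78 ± 0.56, adjusted p = 0.000394). TPS10 (AT1G60140), of the trehalose-phosphate synthase family, changed by -0.67 ± 0.19. ASN1 (AT3G47340), the asparagine synthetase known as a marker of dark starvation, was at 1199.8, 1172 and 1617 CPM in dark and 815, 558 and 561 CPM in light, with no overlap, and did not pass (adjusted p = 0.129, and 0.00189 with only the 6 libraries in the fit).

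Of 28 amino acid breakdown genes 12 fell and 1 rose, with a median of -0.56, and 7 fell and 2 rose without dark library 3. The rises numbered 3 without the dark glucose libraries labelled wild type 2 and mutant 2. MGL (AT1G64660), a methionine lyase, was at 426, 427 and 548 CPM in dark and 105, 75 and 76.8 CPM in light (-2.35 ± 0.29, adjusted p = 3.03e-07). MCCB (AT4G34030), of leucine breakdown, changed by -1.08 ± 0.19 and HGO (AT5G54080), of tyrosine breakdown, by -1.18 ± 0.20. The gene that rose was HML1 (AT2G26800), of leucine breakdown too (0.6 ± 0.17). PRODH1 (AT3G30775), proline dehydrogenase, was at 503, 567 and 554 CPM in light and 266, 293 and 381 CPM in dark, without overlap, and was not called (adjusted p = 0.266, 0.000296 with only the 6 libraries and 0.0142 without the dark glucose libraries labelled wild type 2 and mutant 2).

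Nitrogen assimilation was divided, with 4 of 18 genes higher and 3 lower and a median of 0.01. NIA2 (AT1G37130), the main nitrate reductase, was at 2894, 2598 and 2754 CPM in light and 946, 910.0 and 1068 CPM in dark (1.59 ± 0.26, adjusted p = 1.88e-05), whereas NIA1 (AT1G77760) was at 572, 731 and 656 CPM and 579, 543 and 629 CPM and was not called. The asparagine synthetase gene ASN2 (AT5G65010) rose by 1.4 on the log2 scale. The nitrate transporter gene NRT1.1 (AT1G12110) changed by -1.28 ± 0.29 and the cytosolic glutamine synthetase gene GLN1.3 (AT3G17820) by -0.96 ± 0.12.

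Stored oil feeds a germinating seedling through beta-oxidation, the glyoxylate cycle and gluconeogenesis. Of 22 listed genes 3 rose and 8 fell, with a median of -0.34. The falls numbered 5 without dark library 2 and 3 without light library 3, and the rises 1 without dark library 1, dark library 2 or light library 3. PCK1 (AT4G37870), which commits carbon to sugar, was at 616, 811 and 625 CPM in dark and 267, 341 and 219 CPM in light (-1.21 ± 0.32, adjusted p = 0.00421). The glyoxylate cycle genes ICL (AT3G21720) and MLS (AT5G03860) were scattered: ICL was at 2228, 1684 and 756 CPM in light and 1371, 2760.5 and 1716 CPM in dark, and neither was called. PMDH2 (AT5G09660), a peroxisomal malate dehydrogenase, was higher in light (1.04 ± 0.25).

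Of 29 starch and sucrose genes 5 rose and 7 fell, with a median of 0.13, and 10 rose with only the 6 libraries in the fit. BAM3 and BAM9 (AT5G18670), both of the beta-amylase family, changed by 5.74 ± 0.75 and 2.19 ± 0.24. Other genes of starch breakdown went the other way, the alpha-amylase AMY3 (AT1G69830) at -2.08 ± 0.30, the phosphatase SEX4 (AT3G52180) at -1.79 ± 0.25 and the disproportionating enzyme DPE1 (AT5G64860) at -1.21 ± 0.32. GBSS1 (AT1G32900), which makes amylose, was at 28.1, 23.5 and 32.1 CPM in light and 13.7, 10.5 and 13.3 CPM in dark and did not pass (adjusted p = 0.0646, and 9.26e-06 with only the 6 libraries in the fit). Of 21 sugar transporter genes 2 rose and 3 fell, 1 rose when any single library was left out, and 5 rose and 5 fell with only the 6 libraries. SWEET2 (AT3G14770), a sugar carrier of the vacuole, was at 256, 207 and 239 CPM in light and 24.2, 26.9 and 35.3 CPM in dark (3.12 ± 0.34, adjusted p = 2.97e-08). STP13 (AT5G26340), a hexose importer, changed by -1.62 ± 0.27.

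SnRK1 is the kinase that responds to low energy, and of 18 genes for its subunits and bZIP partners 1 rose and 1 fell, or 4 and 3 with only the 6 libraries in the fit. BZIP63 (AT5G28770), a bZIP target of the kinase, was at 119, 100.4 and 128 CPM in light and 52, 48.6 and 54.9 CPM in dark (1.25 ± 0.16, adjusted p = 5.38e-07). GRIK1 (AT3G45240), an activating kinase, changed by -0.57 ± 0.14. The catalytic subunits KIN10 (AT3G01090) and KIN11 (AT3G29160) were at 112, 94.2 and 84.4 CPM and 38.7, 36.7 and 38.3 CPM in light, against 88.4, 92.6 and 105 CPM and 44, 38.1 and 43 CPM in dark, and neither was called. Of 21 autophagy genes, which recycle cell contents, 8 fell and 1 rose. The falls numbered 3 without dark library 3 and 5 without light library 3, and the rise was lost without dark library 2 or light library 3. ATG8H (AT3G06420), a coat protein of autophagosomes, changed by -0.8 ± 0.23.

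All 22 cytosolic ribosomal protein genes of the list were higher in light, by 0.65 to 1.33 on the log2 scale, with a median of 0.85. Of all tested genes 14.4% were called higher. The list was chosen with earlier results of these data known, so its count does not stand for the whole gene family. RPL9D (AT4G10450), a protein of the large subunit, was at 42, 70.9 and 61.3 CPM in light and 25.4, 25 and 23.3 CPM in dark (1.33 ± 0.24, adjusted p = 6.43e-05). RPL5A (AT3G25520, TAIR10 chromosome 3, 9269293 to 9271390), also of the large subunit, was at 416, 610.2 and 566 CPM in light and 291, 324 and 266 CPM in dark (0.95 ± 0.17, adjusted p = 8.77e-05). RPL10AB (AT2G27530, TAIR10 chromosome 2, 11763217 to 11764845) changed by 0.88 ± 0.17 and RPL23AA (AT2G39460) by 1.03 ± 0.18. The list summed to 5397, 8156 and 7604 CPM in light and to 4020.0, 4670.0 and 3898 CPM in dark, so light library 1 was the lowest of the light group and still above each dark library.

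The 200 bases before RPL5A (minus strand, chr3:9271391-9271590) and RPL10AB (minus strand, chr2:11764846-11765045) are shown for the telo-box AAACCCTA, in capitals in either orientation, which is common before plant genes of the translation machinery.
RPL5A: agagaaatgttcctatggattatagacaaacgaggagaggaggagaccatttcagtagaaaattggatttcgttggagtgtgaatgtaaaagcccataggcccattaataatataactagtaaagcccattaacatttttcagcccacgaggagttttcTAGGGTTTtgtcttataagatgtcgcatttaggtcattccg
RPL10AB: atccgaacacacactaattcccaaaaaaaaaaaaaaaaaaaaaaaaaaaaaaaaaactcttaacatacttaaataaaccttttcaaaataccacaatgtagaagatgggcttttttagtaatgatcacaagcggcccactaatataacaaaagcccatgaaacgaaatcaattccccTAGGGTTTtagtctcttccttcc
In windows of 250 bases before to 50 after the start, 19 of the 22 listed ribosomal protein genes held a telo-box and 13 of 22 a site II element, TGGGCC. Among all tested genes with a window 8.51% held a telo-box, among those called higher 18.4% and among those called lower 2.70%. For site II the shares were 17.0%, 27.2% and 8.86%. Both strands were searched, and no searched motif contains another. A match is a string of letters in a window and not evidence of binding.

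**Figure D3:**
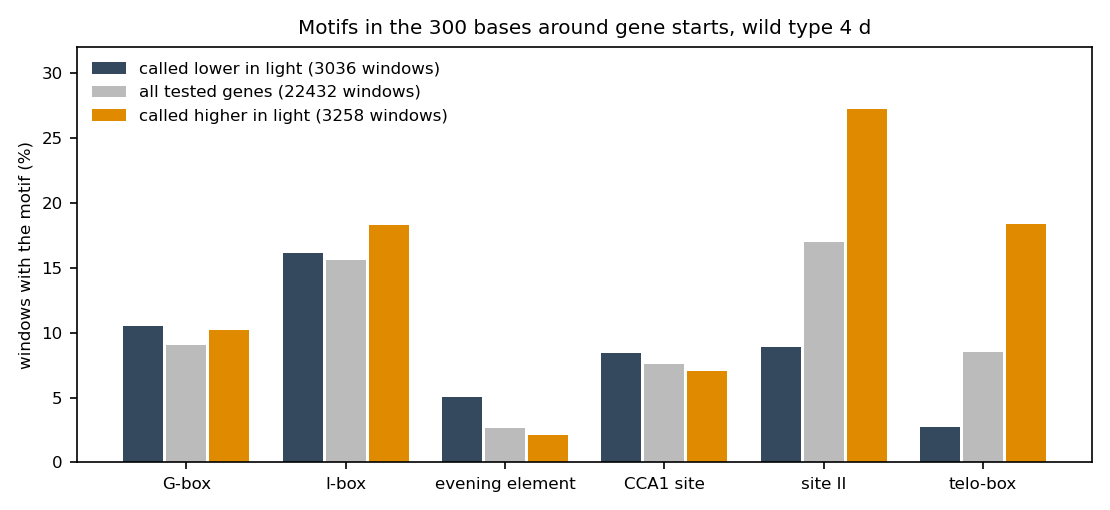
Percent of promoter windows (250 bases before to 50 after the start) that hold each of 6 motifs, for all 22432 tested genes with a window, 3258 called higher in light and 3036 called lower. The telo-box and site II bars are highest for genes called higher, and the evening element bar is highest for genes called lower.

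Cell division genes had few calls at 4 d: of 25 listed, 2 rose and 1 fell, with a median of -0.09. The gene that fell was CYCD1.1 (AT1G70210), a D-type cyclin, at 69.9, 60.1 and 68.4 CPM in dark and 14.8, 15.4 and 15.1 CPM in light (-2.04 ± 0.30, adjusted p = 5.92e-06). CYCD3.1 (AT4G34160), a D-type cyclin that responds to cytokinin, was at 22.2, 22.4 and 23.7 CPM and 23.2, 26.9 and 22.3 CPM and was not called. The rises numbered 0 or 1 when any single library was left out.

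Markers of cell types were followed because whole seedlings were harvested. The 5 marker lists were detected in all 6 libraries, and in such tissue fewer cells of a type and less RNA per cell cannot be told apart. Of 16 stomatal lineage markers 3 rose and none fell, with summed levels of 236 to 244 CPM in light and 191 to 203 CPM in dark. SPCH (AT5G53210), which starts the lineage, was at 7.9, 10.9 and 9.97 CPM in light and 4.4, 5.2 and 3.69 CPM in dark (1.21 ± 0.30, adjusted p = 0.00253), and EPF2 (AT1G34245), a peptide that limits it, changed by 1.22 ± 0.35. With only wild-type libraries without glucose in the fit 8 of the 16 rose, and with only the 6 libraries 10 did. Of 13 tested shoot apex markers 1 rose and 2 fell, with 9 above 0 and a median of 0.17. Their summed levels were 213 to 236.5 CPM in light and 305 to 356 CPM in dark. WUS and CLV3, which mark the stem cell niche, were too low to be tested. The falls numbered 1 when any library but light library 1 was left out. AS2 (AT1G65620), a leaf polarity gene, changed by 1.13 ± 0.26, and STM (AT1G62360), the meristem gene, was at 4.88, 3.89 and 5.43 CPM in light and 8.94, 7.5 and 8.03 CPM in dark and did not pass (adjusted p = 0.0515, and 0.00958 with only the 6 libraries in the fit).

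Vascular markers fell in 6 of 9 cases and rose in none, with summed levels of 209 to 222 CPM in light and 344 to 371 CPM in dark. The falls numbered 2 without dark library 1 and 3 without light library 2 or light library 3. XCP1 (AT4G35350), a protease of dying xylem cells, changed by -1.5 ± 0.38, and SUC2 (AT1G22710), the sucrose loader of phloem companion cells, by -0.63 ± 0.17. Of 17 root markers 1 rose, 3 fell and 13 did not pass, with 11 above 0 and a median of 0.09. Their summed levels were 171.5 to 185 CPM in light and 356 to 393 CPM in dark, and 143 to 165 and 186 to 208 CPM without TIP2.3. None rose without dark library 1, dark library 3, light library 2 or light library 3, and 3 rose without light library 1. TIP2.3 (AT5G47450), a root tonoplast aquaporin, was at 164, 148 and 207 CPM in dark and 25.8, 19.7 and 31.5 CPM in light, and CASP1 (AT2G36100), of the endodermal barrier, changed by -1.5 ± 0.38. Of 9 tested epidermis and cuticle markers 3 fell and none rose, with 4 above 0 and a median of -0.06. Their summed levels overlapped, at 1261 to 1540 CPM in light and 1517 to 1758 CPM in dark. Among the falls was CER1 (AT1G02205), of wax alkane synthesis, at -3.14 ± 0.46. The rises numbered 1 with RLE normalization, DESeq2, a filter at 1 CPM, or only wild-type libraries without glucose or the 6 libraries in the fit. The part of root and vascular markers in the other falls was not tested.

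Smaller stress lists can be read beside the 14.4% of all tested genes called higher and the 13.5% called lower. Of 11 hypoxia and endoplasmic reticulum genes 2 rose (1 without any library but light library 3), including HB1 (AT2G16060), a haemoglobin of low oxygen, at 1.9 ± 0.44. With only the 6 libraries in the fit 4 of the 11 rose. Of 9 tested iron and sulfur genes 2 rose, FRO7 (AT5G49740), a plastid ferric reductase, at 2.84 ± 0.49 and APR2 (AT1G62180), a sulfate-reducing enzyme, at 1.3 ± 0.32. In the fit of only the 6 libraries 4 of the 9 rose and 2 fell. Of 10 tested senescence genes 1 fell and none rose, and none fell without dark library 3, light library 2 or light library 3, while 2 fell without dark library 2 and 3 without the dark glucose libraries labelled wild type 2 and mutant 2.

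The same contrast in wild-type seedlings at 5 d used 6 other libraries and served as a separate measurement of the light response. At 5 d 16.5% of the tested genes were called higher and 18.9% lower. Of the 6297 genes called at 4 d, 5744 (91.2%) had the same direction at 5 d, and 4045 were called at both ages in that direction, which is 64.2% of the 4 d calls and 50.5% of the 5 d calls. Another 25 were called in opposite directions. Across all tested genes, which are not independent replicates, the fold changes of the ages had Pearson's r of 0.559 and Spearman's rho of 0.602. A difference between the ages was called for 478 genes, 2.12% of those tested. Leaving out single 4 d libraries gave 234 (dark 1), 165 (dark 3), 131 (light 2) and 239 (light 3), and leaving out single 5 d libraries gave 211 (dark 1), 296 (dark 3), 133 (light 1) and 165 (light 3).

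More photosystem genes were called at 5 d than at 4 d. Of the 52 photosystem genes 42 were higher at 5 d, with a median of 1.51, though the difference between ages was called for only 2 of them, with 20 at an unadjusted p under 0.05. LHCB2.1 (AT2G05100), a main antenna gene, was at 2124, 2414 and 2393 CPM in light and 1176, 925 and 1012 CPM in dark at 4 d. At 5 d it was at 2621, 2144 and 2869.7 CPM in light and 321, 131 and 221 CPM in dark, and its change went from 1.25 ± 0.47 to 3.7 ± 0.51 (difference 2.45 ± 0.66, adjusted p = 0.0444). The 4 d call of this gene was lost when any single library of the comparison was left out. The call of the difference was lost in 10 of 12 cases in which 1 library was left out (adjusted p from 0.0578 to 0.115) and with no filter on low counts (0.0721). Of 13 plastid ribosomal protein genes 9 were higher at 5 d, and for none was the difference between ages called by edgeR, with 1 at an unadjusted p under 0.05.

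Ribosomal and flavonoid genes had fewer calls at 5 d. None of the 22 cytosolic ribosomal protein genes was called at 5 d by edgeR, nor had any an unadjusted p under 0.05, where the median was 0.1, and the difference between ages was called for 4, all toward lower values at 5 d, with 20 at an unadjusted p under 0.05. RPL23AA went from 1.03 ± 0.18 at 4 d to 0.02 ± 0.18 at 5 d (difference -1.01 ± 0.26, adjusted p = 0.0348). Of the 26 flavonoid genes 5 were higher at 5 d and the difference was called for 5, all toward lower values at 5 d. CHS changed by 3.96 ± 0.50 at 4 d and 1.0 ± 0.45 at 5 d (difference -2.96 ± 0.65, adjusted p = 0.0131), and in the 5 d libraries it stood at 64.5, 113 and 111 CPM in light and 91.8, 38.1 and 33.2 CPM in dark.

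A few genes differed widely between the ages. HB1 was higher in light at 4 d and lower at 5 d (-1.29 ± 0.44, difference -3.19 ± 0.62, adjusted p = 0.00578). AT2G04050 was at 43.9, 69.5 and 79 CPM in light and 2.14, 2.45 and 2.58 CPM in dark at 4 d, and at 11.6, 5.33 and 5.3 CPM and 18.2, 8.4 and 6.62 CPM at 5 d. AT1G73120, annotated as an F-box protein, was lower in light at both ages, with changes of -1.72 ± 0.33 and -5.58 ± 0.40. The cell cycle list had 12 of 25 genes lower at 5 d against 1 at 4 d, and for none of the 25 was the difference called by edgeR, with 6 at an unadjusted p under 0.05.

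**Figure D4:**
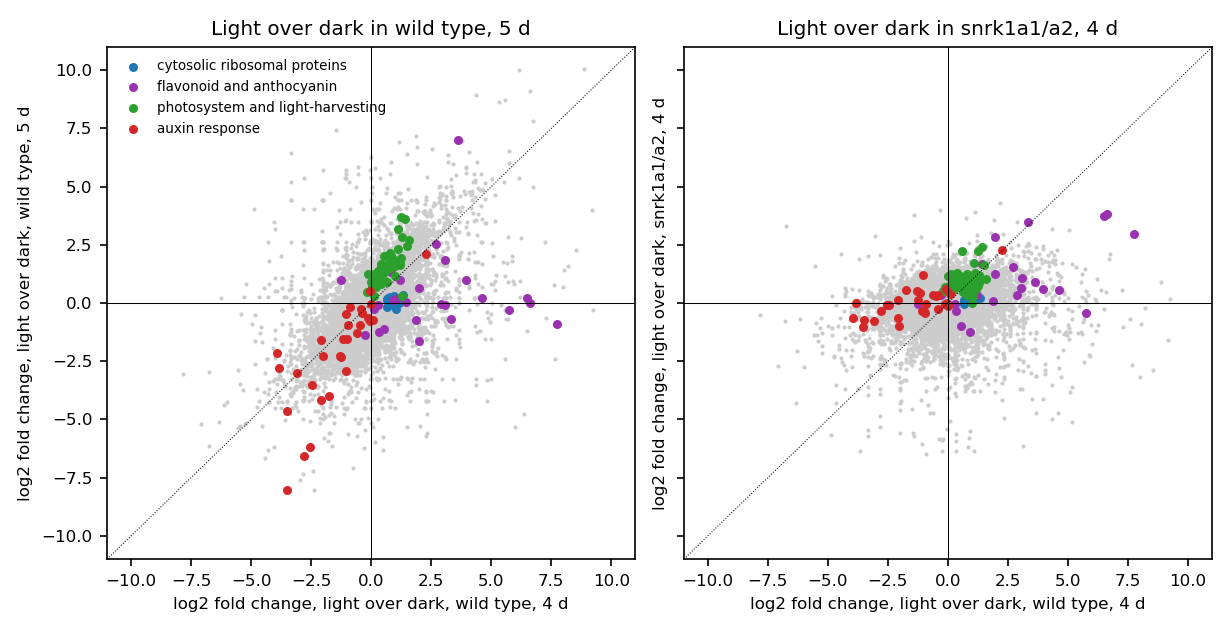
Log2 fold change of light over dark in wild type at 4 d (x axis) against wild type at 5 d (left panel) and the mutant at 4 d (right panel). Each tested gene is 1 point, and the cytosolic ribosomal protein, flavonoid, photosystem and auxin lists are coloured. Of the genes called in wild type at 4 d, which are not marked, 91.2% kept their direction at 5 d and 69.0% in the mutant.

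The snrk1a1/a2 mutant was grown through the same contrast at 4 d without glucose, again in 3 light and 3 dark libraries. Its label names the genes of KIN10 and KIN11, and their levels were as follows: KIN10 stood at 583, 122 and 154 CPM in mutant light and 128, 126 and 137 CPM in mutant dark, and KIN11 at 40.1, 31.8 and 41.1 CPM and 29.7, 41.7 and 37.1 CPM. KIN10 was higher in each of these libraries than in any 4 d wild-type library without glucose, KIN11 overlapped with wild type in light and in dark, and neither difference between genotypes was tested. Transcript levels therefore did not check the label. The sample titles write the mutant as kd without spelling it out, and how the mutant was made is not otherwise given in the sources used here. Mutant light library 1 stood apart in KIN10 and also lay nearest to the dark libraries in PORA, PORB and PHOT1, with PORA at 333, 51.9 and 87 CPM in mutant light and 1046, 985 and 490.0 CPM in mutant dark, and PORB at 393, 79.1 and 135 CPM and 861, 804 and 439 CPM. PHOT1 was at 143, 50.9 and 71.2 CPM in mutant light and 199, 171 and 122.8 CPM in mutant dark. In the libraries labelled mutant, 535 genes were called between light and dark, 2.37% of those tested. Without light library 1 the number was 605, without light library 2 it was 259, and without dark library 1, 2 or 3 it was 301, 204 and 320.

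The difference between the light effects of the genotypes was called for 2074 genes, 9.18% of those tested. It was called for 1133, 1042 and 1067 without wild-type dark library 1, dark library 3 or light library 3, and for 1333, 1315 and 1324 without mutant dark library 1, dark library 2 or light library 1. Of the 6297 genes called in wild type 4344 (69.0%) had the same direction in the mutant, and 6140 had a fold change nearer 0 there, although genes picked for a call in wild type tend to be larger in wild type. Among the 1860 of them with a called difference, 1841 were nearer 0 in the mutant. The median change of the wild-type rises was 0.91 in wild type and 0.17 in the mutant, and that of the falls was -0.87 and -0.11.

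Starch, respiration and growth genes were among those with a called difference. BAM3 was at 27.7, 30.9 and 57.8 CPM in mutant light and 32, 20.9 and 31.8 CPM in mutant dark, so its light effect of 5.74 ± 0.75 in wild type stood beside 0.54 ± 0.59 in the mutant (difference -5.2 ± 0.93, adjusted p = 0.000998). NDA1 was at 14.9, 22.3 and 18.2 CPM in mutant light and 4.81, 3.38 and 5.37 CPM in mutant dark, with a light effect of 2.1 ± 0.33 (difference -4.63 ± 0.56, adjusted p = 4.47e-06). IAA19 was at 28, 30.5 and 18.2 CPM in mutant light and 38.2, 47 and 52.1 CPM in mutant dark, and XTH17 at 34.6, 11.6 and 8.89 CPM and 25, 18 and 23.5 CPM. Their light effects differed from wild type by 2.32 ± 0.36 and 3.57 ± 0.70. CHS was at 148, 47.3 and 87.8 CPM in mutant light and 86.5, 39.1 and 70.8 CPM in mutant dark (difference -3.38 ± 0.65, adjusted p = 0.0016).

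By list, the difference was called for 13 of 30 auxin genes, 7 of 30 cell wall genes and 11 of 28 amino acid breakdown genes, all toward higher values in the mutant's light effect. It was called for 6 of 22 cytosolic ribosomal protein genes, 6 of 26 flavonoid genes and 7 of 29 genes of plastid gene expression, all toward lower values. For none of the 52 photosystem genes was it called by edgeR, with 1 at an unadjusted p under 0.05, and 9 of these were higher in light in the mutant. The light effect of CCA1 was 2.21 ± 0.29 in wild type and 2.26 ± 0.29 in the mutant (difference 0.05 ± 0.39), and that of HEMA1 was 1.46 ± 0.25 and 1.58 ± 0.25 (difference 0.11 ± 0.34).

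Wild-type seedlings at 3 d in the dark gave a younger reference for both 4 d groups. Against it 28.1% of the tested genes were called in 4 d light and 24.2% in 4 d dark. Both comparisons share the 3 d libraries, so their values are only set side by side. Over 3 d libraries 1 to 3, PIL1 stood at 48.2, 44.8 and 3.2 CPM and BAM3 at 1.13, 1.31 and 11.3 CPM. Library 3 stood apart in these genes but not across genes with at least 50 summed counts. There libraries 1 and 2 differed most, with chi-square per degree of freedom of 38.8 and 40.6, and pairs with library 3 gave 22.8 to 27.8. Calls in 4 d light against 3 d dark numbered 4948, 5736 and 5022 without 3 d library 1, 2 or 3, rather than 6337. Calls in 4 d dark against 3 d dark numbered 3677, 5783 and 3121, rather than 5455. That dark count was 3113 without 4 d dark library 3.

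Some light-dark differences at 4 d came with a change in the dark group and others with a change in the light group. ELIP2 was at 54.6, 256 and 389.6 CPM at 3 d, and its log2 change from 3 d was -0.76 ± 0.51 in light (adjusted p = 0.287) and -4.99 ± 0.61 in dark (adjusted p = 1.81e-06). ELIP1 was at 99.1, 540.0 and 801 CPM at 3 d, where its first library overlapped with 4 d light, and changed from 3 d by -2.71 ± 0.59 in light (adjusted p = 0.000745) and -5.02 ± 0.66 in dark. Cytosolic ribosomal protein genes had 1 of 22 higher than at 3 d in light, whereas in dark 18 of 22 were lower. Of the 19 starvation markers 13 were higher than at 3 d in dark and 9 in light. PORA changed by -5.26 ± 0.66 from 3 d to 4 d light and by -0.82 ± 0.56 to 4 d dark, IAA19 by -3.71 ± 0.28 and -0.63 ± 0.24, and HYH by 1.11 ± 0.31 and -2.36 ± 0.34.

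**Figure D5:**
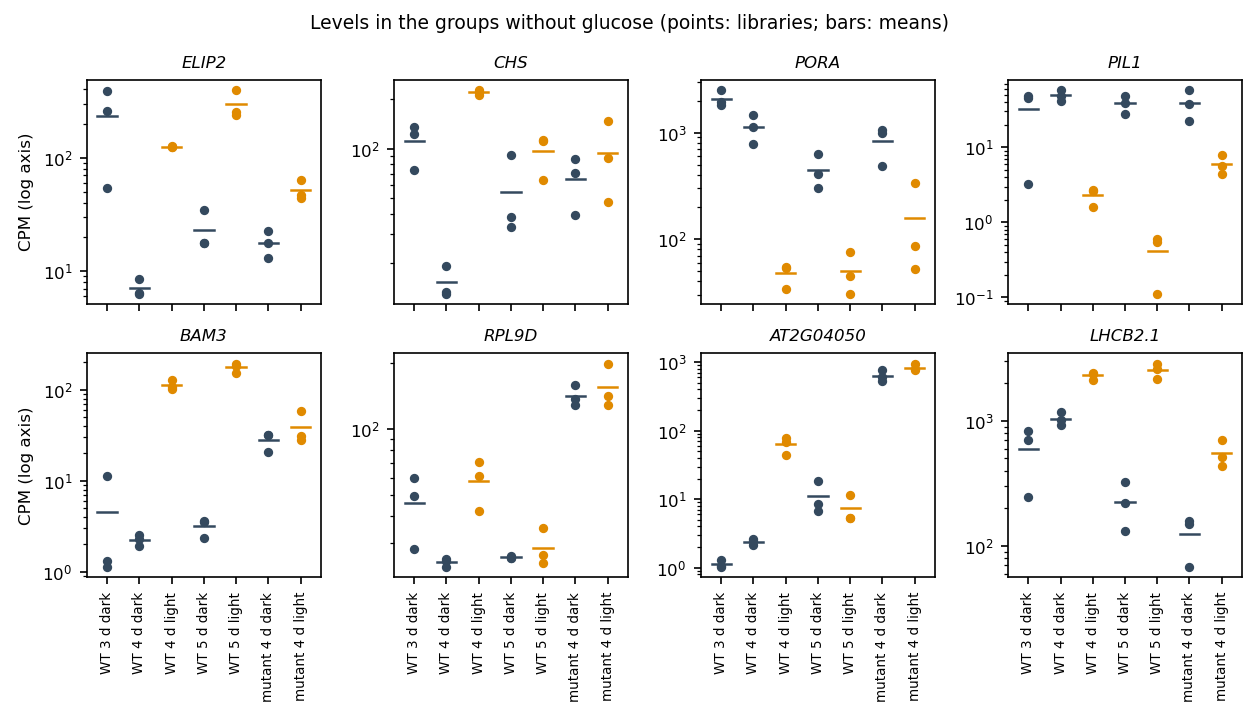
CPM on a log axis of ELIP2, CHS, PORA, PIL1, BAM3, RPL9D, AT2G04050 and LHCB2.1 in each library of 7 groups: wild type at 3 d dark, 4 d dark and light, and 5 d dark and light, and the mutant at 4 d dark and light. BAM3 stands at or above 102 CPM in every 4 d wild-type light library and at or below 2.53 CPM in every 4 d wild-type dark library.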

How the data were processed

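Messenger RNA of whole seedlings was sequenced, and 6 of the 48 samples form the comparison. The authors deposited raw read counts per transcript model in 3 tables, written by featureCounts 1.6.2 against TAIR10, per the file headers, and the submitters' processing notes also name STAR and DESeq2. Exons were grouped by parent model, a read counted for each model it overlapped, and strand was not used, per the file headers, so overlapping and antisense genes are uncertain. Light and dark libraries were counted in separate tables. The exonic length of each model, also deposited by the authors per the file headers as another unit, served to take the longest model of each of 32678 genes. The 3 d dark libraries appear in a pair of runs whose counts differed by little more than sampling noise (chi-square per degree of freedom 1.04 to 1.06, against 7.12 to 40.6 between libraries) and were summed, which left 42 libraries in 14 groups of 3.

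Genes were filtered with filterByExpr, scaled by TMM and tested with edgeR 4.0.16 (R 4.3.3, robust quasi-likelihood, 1 mean per group, 28 residual degrees of freedom, Benjamini-Hochberg adjustment over 22586 genes, threshold 0.05). Fold changes are on the TMM scale, and CPM are unscaled. Dispersion corresponded to a biological coefficient of variation of 21.1%. Standard errors were taken as the fold change divided by the square root of F. On simulated counts for this comparison, over 22586 genes of which 200 were changed, 84% of 4-fold and 60% of 2-fold changes were recovered, with 8 false calls. In the data 6297 genes were called, and the adjustment depends on how many genes change. The simulated figures therefore do not give the recovery or false calls of the real comparison. With 3 libraries per group their number limits precision.

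The members and the 36 gene lists (731 different genes, 721 tested) were chosen with earlier results of these data known. The naming rule took the 10 largest rises and falls at mean log2 CPM of at least 2 without overlap, up to 4 called members per list and direction and 2 that did not pass, 47 anchor genes, and the 5 largest differences in each direction with 5 d and with the mutant. It gave 281 genes, from which most of the text's genes were picked after their values were seen. KIN10, KIN11 and the ribosome assembly and mitochondrial stress genes lie outside the rule and were also chosen after their values were seen. Motif windows come from the TAIR10 chromosomes of RefSeq's TAIR10.1 assembly, where 98.8% of 175094 introns of the deposited models read GT to AG. Alternatives were another normalization, other filters, other libraries in the fit, a replicate block, other gene models, DESeq2 1.42.0 and each library left out.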

Additional observations from a re-analysis of the deposited data

Results flagged for a closer look

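The light effect in wild type differed between ages for 478 genes and between genotypes for 2074 genes by edgeR's test of the difference itself. Values below are differences of log2 light effects ± SE, n = 3 libraries per group.

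The genes with the largest called increase from 4 d to 5 d were KCS12 (AT2G28630), a fatty acid elongase, at 3.26 ± 0.38, and the transcription factor gene WRKY49 (AT5G43290) at 2.81 ± 0.51. AT1G30720, a berberine-bridge-like gene, followed at 2.73 ± 0.63, LHCB2.1 at 2.45 ± 0.66 and AT2G39518 at 2.42 ± 0.44. KCS12 stood at 14, 31.1 and 20.1 CPM in light and 40.6, 23.5 and 35.2 CPM in dark at 4 d, and at 139.8, 124 and 136 CPM and 21.1, 24.2 and 23.8 CPM at 5 d. In the opposite direction stood AT2G04050 at -5.23 ± 0.63, AT2G18193, an AAA-type ATPase, at -4.27 ± 0.68, and AT1G73120 at -3.86 ± 0.48. GMI1 (AT5G24280), which gamma irradiation induces, was at -3.72 ± 0.67 and AT1G17960, a threonyl-tRNA synthetase, at -3.67 ± 0.86. AT2G18193 was higher in light at 4 d (2.57 ± 0.47) and lower at 5 d (-1.7 ± 0.49). The differences of LHCB2.1, AT1G30720 and AT1G17960 lost their call when single libraries were left out, with adjusted p up to 0.115, 0.0638 and 0.0638.

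Between genotypes, the differences furthest above 0 (mutant minus wild type) were those of AT5G44440 at 4.19 ± 0.80, AT3G18530 at 4.07 ± 0.56, CCL (AT3G26740), named for its clock-regulated mRNA, at 3.7 ± 0.75, XTH17 at 3.57 ± 0.70 and AT5G61660, a glycine-rich protein gene, at 3.55 ± 0.51. AT5G44440 was at 232, 30.3 and 38.6 CPM in mutant light and 392, 222 and 185 CPM in mutant dark. Furthest below 0 were CSLB03 at -5.67 ± 0.72, BAM3 at -5.2 ± 0.93, NDA1 at -4.63 ± 0.56, AT2G04050 at -4.37 ± 0.59 and FBA5 at -3.65 ± 0.90. CSLB03 was at 3.62, 2.95 and 2.79 CPM in mutant light and 2.58, 2.54 and 4.19 CPM in mutant dark. The FBA5 difference had an adjusted p of 0.182 without mutant dark library 1. All other differences given here passed with each single library left out.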

How the results depend on the processing

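The count of 6297 called genes was 4621 to 5311 with single libraries left out, 8442 with only the 6 libraries fitted and 6634 with DESeq2. The difference between ages moved most: 298 genes with no filter on low counts, 2057 with only the compared groups and 979 with DESeq2, and 131 to 630 with single libraries left out. The difference between genotypes ran from 1042 to 2184, the count for 4 d dark against 3 d dark from 3113 to 5783 and that for 4 d light against 3 d dark from 4558 to 5736 with single libraries left out. The count for light against dark in the mutant, an alternative added after the data were seen, ran from 204 to 605 with single libraries left out. The causes were not tested. With a replicate block on the 6 libraries 8312 genes were called. Same-numbered libraries did not deviate together (correlations of -0.06, 0.06 and -0.10), so no strong pairing by number was seen. A weak pairing could not be seen this way. Under that block BGLU30 lost its call (-2.87, adjusted p = 0.0652).

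Of 195 named genes run at 4 d, 169 were called and 8 of these lost the call under some alternative: LHCB2.1, HY5, GI, SEN1, BGLU30, IVD, NUC-L1 and AT5G51440. No named value changed sign where the main fit or the alternative called it. Sign changes of values called in neither were not counted. HY5 also lost it with only wild-type libraries fitted (adjusted p = 0.08). The median of all genes was -0.03 under TMM, 0.01 under RLE and -0.02 under TMM of nuclear genes. Genes below about 1 CPM rest on about 10 counts per library.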

Other observations

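The following groups were assembled after their values had been seen. Of 9 ribosome assembly genes all 9 were higher in light at 4 d, with a median of 1.01, against 14.4% of all genes. FIB2 (AT4G25630), a fibrillarin that methylates ribosomal RNA, was at 47.6, 81.8 and 61.5 CPM in light and 24.8, 29.3 and 18.8 CPM in dark (1.49 ± 0.32). NOP56 (AT1G56110) changed by 1.18 ± 0.28, NAP57 (AT3G57150), a pseudouridine synthase, by 1.18 ± 0.27 and PES (AT5G14520) by 0.68 ± 0.18. NUC-L1 (AT1G48920), nucleolin, changed by 0.81 ± 0.23, with an adjusted p of 0.0542 without light library 2. At 5 d 1 of the 9 was higher, and the difference between ages was called for 3, among them FIB2 at -2.04 ± 0.46. HDA3 (AT3G44750), a nucleolar histone deacetylase, had a difference of -1.89 ± 0.44.

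Of 11 genes known from mitochondrial stress 7 were higher in light at 4 d and 1 lower. The 1 fall was lost without dark library 2, dark library 3 or light library 3 and with DESeq2, and 3 fell with only the 6 libraries or only wild-type libraries without glucose in the fit. AOX1A (AT3G22370), the alternative oxidase, was at 31.4, 41.6 and 51.2 CPM in light and 13.1, 13.5 and 14.4 CPM in dark (1.69 ± 0.30). UGT74E2 (AT1G05680), a glucosyltransferase, was at 21.6, 38.7 and 36.3 CPM and 4.0, 3.82 and 4.7 CPM (3.04 ± 0.51). AT2G21640, a marker of oxidative stress, changed by 2.72 ± 0.48 and NAC13 (AT1G32870), a factor of mitochondrial signalling, by 1.23 ± 0.26. At 5 d 2 of the 11 were higher and 3 lower, and the light effect of UGT74E2 there was -0.36 ± 0.49 (difference -3.4 ± 0.70, adjusted p = 0.00879). NDB2 (AT4G05020), an external NAD(P)H dehydrogenase, was at 9.06, 7.78 and 6.97 CPM in light and 12.9, 10.8 and 12.8 CPM in dark at 4 d and was not called by the fit of all libraries (adjusted p = 0.0784). It was called lower with only the 6 libraries (adjusted p = 0.0271), with the replicate block (0.0299), with only wild-type libraries without glucose (0.0250) and without the dark glucose libraries labelled wild type 2 and mutant 2 (0.0487). Why these genes rose at 4 d was not tested.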
